A study of Mus musculus with 12 samples.

Results

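Acly, Acaca, Fasn, Acss2, Scd1, Scd2, Elovl6, Elovl5, Fads1 and Fads2 encode enzymes that build fatty acids from acetyl-CoA, lengthen them and place double bonds in them. The 10 genes were taken by name, and every probe set that named 1 of them and no other gene was kept, which gave 27 of the 45037 probe sets tested. On the array 18193 genes had a probe set of their own. A further probe set names Acss2 together with another gene and was left out.

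RNA was measured on 12 Affymetrix mouse arrays, 3 per group, in BNL CL.2 cells, a mouse line of liver origin, and the mean of a group is over n = 3 arrays. In RAW_FAC the cells shared the medium for 24 h with RAW 264.7 cells, a mouse macrophage line held in a culture insert, and received 100 micromolar FAC (ferric ammonium citrate, an iron salt). The group FAC received the same iron dose with an insert that held more BNL CL.2 cells. The group RAW had macrophages in the insert and no added iron, and the group alone had BNL CL.2 cells in the insert and no added iron. No group is labelled as given ammonium citrate without iron. What is called iron here therefore cannot be told apart from the rest of the salt. The cells of all 4 groups were trypsinized, grown in DMEM with 10% serum and kept beside an insert, so each comparison is between insert cultures of a single line. Values are log2 signals, on which a difference of 1 is a 2-fold change, and a lower signal in bulk RNA does not tell fewer expressing cells from less RNA per cell. The labels leave unsaid whether a group's 3 arrays hold separate cultures, and the p values cover array-to-array spread only.

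Cells make palmitate in the cytosol: ATP citrate lyase (Acly) and acetyl-CoA synthetase (Acss2) supply acetyl-CoA, acetyl-CoA carboxylase (Acaca) turns it into malonyl-CoA, and fatty acid synthase (Fasn) joins the units. Elongases (Elovl6, Elovl5) lengthen the chains, stearoyl-CoA desaturases (Scd1, Scd2) make monounsaturated fatty acids, and Fads1 and Fads2 are the front-end desaturases of polyunsaturated fatty acids. In liver many of these genes are targets of SREBP-1c, a transcription factor of lipid synthesis, and the stearoyl-CoA, Fads1 and Fads2 desaturases hold iron in their active sites.

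With iron, the brightest probe set of 8 of the 10 genes was higher in 6 of 6 same-number pairs of arrays, a pair being an array with iron and the array of the same replicate number without it (3 pairs of RAW_FAC and RAW, 3 of FAC and alone). The median of the 10 mean iron effects, each the average of RAW_FAC minus RAW and FAC minus alone, was 0.21 (log2), against -0.002 over all genes. The largest was 0.42 at Elovl6, which is 1.34-fold, and Elovl5 (0.045) and Scd1 (-0.050) were closest to 0. Of the 27 probe sets 13 were higher in 6 of 6 pairs, against 3.23% of all 45037.

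In limma with 1 mean per group and no other term, 0 of the 27 probe sets passed an adjusted p under 0.05 for the mean iron effect, and 0% of all probe sets did. At an unadjusted p under 0.05, 11 of the 27 were higher in that fit, against 2.7% of all probe sets. Same-number arrays of different groups deviated together, with a median residual correlation of 0.332 over 18 pairs. With the number as a block, which leaves the differences as they are, 16 of the 27 were higher at an unadjusted p under 0.05 (4.88% of all) and 2 passed the adjusted threshold, against 0.289% of all (130 probe sets). These were Elovl6 (probe set 1417404_at) and Scd2 (1415824_at). The Elovl6 call was lost without FAC replicate 1 (adjusted p = 0.0519 in limma with the block). The Scd2 call held without replicate 3 of any group and was lost without replicate 1 or 2 of any group. After group means were removed, same-number arrays that shared an iron condition correlated at a median of 0.374, and those that did not at 0.268. For iron the block can therefore make SE and adjusted p smaller than they should be.

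**Figure D1:**
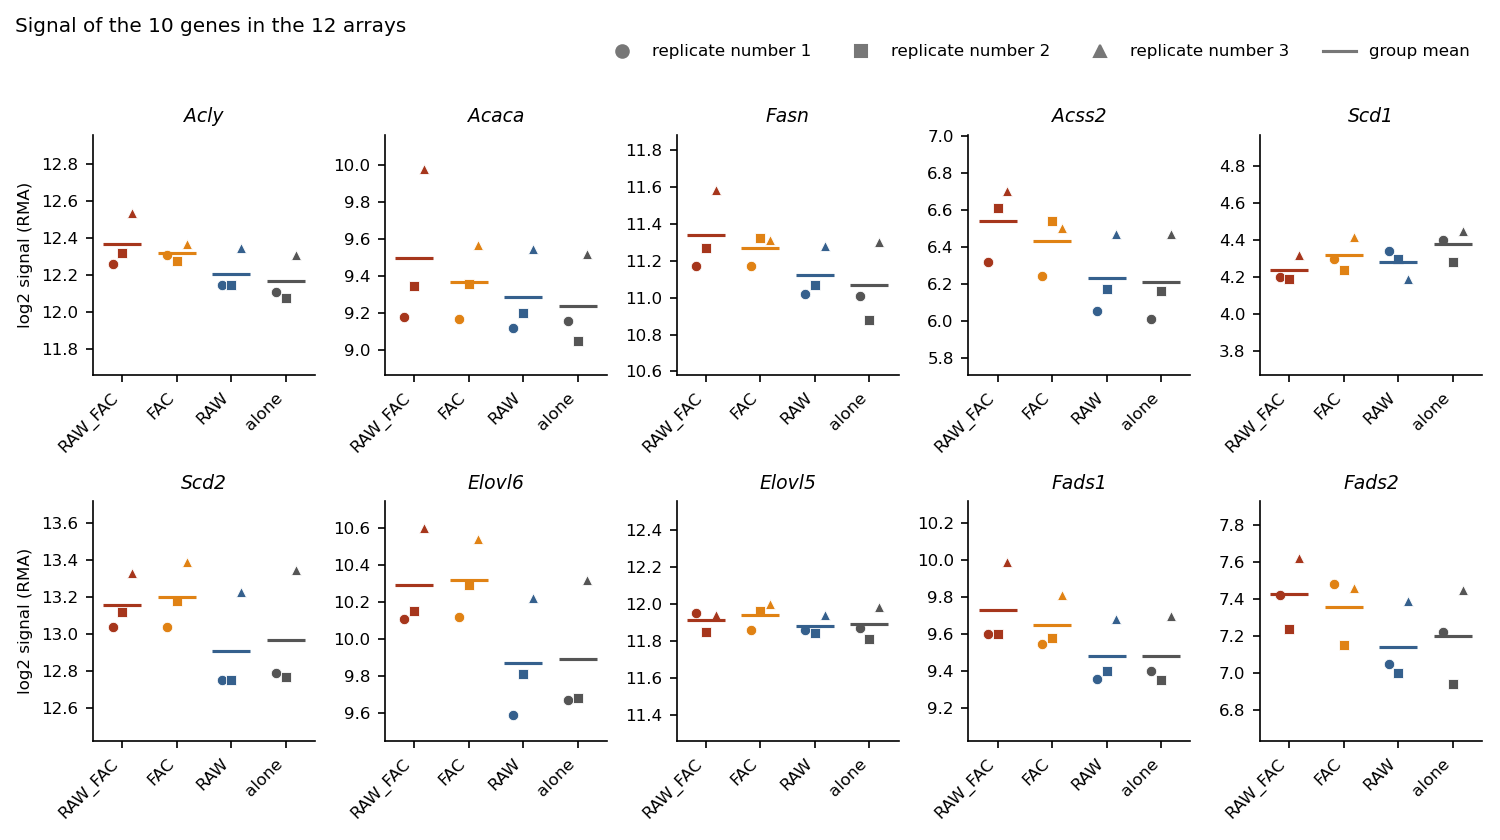
Log2 signal of the brightest probe set of each of the 10 genes in the 12 arrays, by group (horizontal axis); symbols give the replicate number and bars the group means (n = 3). All panels span the same log2 range. Elovl6 averages 10.29 in RAW_FAC and 10.32 in FAC, above 9.87 in RAW and 9.89 in alone, and triangles (number 3) are mostly the highest point of a group.

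Acly and Acss2, which supply cytosolic acetyl-CoA, were both higher with iron in 6 of 6 pairs. The brightest Acly probe set (1439459_x_at) read 12.26, 12.32 and 12.54 in RAW_FAC arrays 1 to 3 and 12.15, 12.15 and 12.35 in RAW, and 12.31, 12.28 and 12.37 in FAC against 12.11, 12.08 and 12.31 in alone. The groups overlapped only through number 3, the highest array of each group. Its mean iron effect was 0.155, with an SE of 0.066 without and 0.042 with the block, and it did not pass (limma adjusted p = 0.882 and 0.218). The other 2 Acly probe sets at or above the median signal gave 0.166 and 0.181, and the 3 dimmer ones -0.060 to 0.113.

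Acss2 activates acetate that reaches the cytosol. Its brightest probe set (1422479_at) read 6.32, 6.61 and 6.70 in RAW_FAC against 6.05, 6.17 and 6.47 in RAW. With BNL CL.2 cells in the insert it read 6.24, 6.54 and 6.5 in FAC against 6.01, 6.16 and 6.47 in alone. In each pair of groups number 3 without iron lay above number 1 with iron, so the groups overlapped. The mean iron effect was 0.265 (1.2-fold, SE 0.10 without and 0.052 with the block), with pairs from 0.03 to 0.44 and a limma adjusted p of 0.880 without and 0.0718 with the block.

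The 3 Acss2 probe sets did not show the same difference. Probe set 1422478_a_at gave 0.198, with pairs that ran from -0.33 (RAW_FAC minus RAW, number 1) to 0.56 (number 2). The dimmest, 1446542_at, gave -0.148 with pairs from -0.62 to 0.14. It read 4.81, 4.73 and 4.11 in RAW_FAC and 4.79, 4.71 and 4.73 in RAW, so the lowest pair came from the single array RAW_FAC 3. Its mean signal of 4.69 lay below the median of all probe sets (5.64), and its 95% interval with the block, -0.356 to 0.060, included 0.

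Acaca catalyses the committed step of fatty acid synthesis. Its brightest probe set (1434185_at) read 9.18, 9.35 and 9.98 in RAW_FAC against 9.12, 9.20 and 9.55 in RAW, and 9.17, 9.36 and 9.57 in FAC against 9.16, 9.05 and 9.52 in alone. Both pairs of groups overlapped, and RAW_FAC 3 stood above the other 11 arrays. The mean iron effect was 0.168 (SE 0.136 without and 0.064 with the block), with pairs as small as 0.01, and its limma adjusted p was 0.946 without and 0.405 with the block. The dim Acaca probe set 1427595_at gave -0.042.

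Fasn, the synthase itself, had a single probe set (1423828_at). It read 11.17, 11.27 and 11.58 in RAW_FAC against 11.02, 11.07 and 11.28 in RAW. It read 11.17, 11.32 and 11.31 in FAC against 11.01, 10.88 and 11.30 in alone. All 6 pairs were above 0, from 0.01 (FAC minus alone, number 3) to 0.44 (number 2), while the groups overlapped. The mean iron effect was 0.207 (1.15-fold, SE 0.088 without and 0.056 with the block), and its limma adjusted p was 0.882 without and 0.215 with the block.

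Elovl6, which extends palmitate to stearate, had the largest iron difference among the brightest probe sets. Probe set 1417404_at read 10.11, 10.15 and 10.60 in RAW_FAC against 9.59, 9.81 and 10.22 in RAW, and 10.12, 10.29 and 10.54 in FAC against 9.67, 9.68 and 10.32 in alone. Numbers 1 and 2 with iron lay above numbers 1 and 2 without it, but number 3 without iron reached into the range with iron. Elovl6 averaged 10.29 ± 0.27 in RAW_FAC and 9.87 ± 0.32 in RAW, and 10.32 ± 0.21 in FAC and 9.89 ± 0.37 in alone (SD, n = 3 each). The pairs ran from 0.22 to 0.61, and the mean iron effect was 0.420 (SE 0.141 without and 0.053 with the block). Elovl6 rose in the fit with the block (limma adjusted p = 0.0104) and did not pass without it (0.844).

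A second Elovl6 probe set, 1417403_at, read 8.83, 8.70 and 8.87 in RAW_FAC against 8.16, 8.38 and 8.64 in RAW. Its 3 arrays of RAW_FAC lay above the 3 of RAW, the only such case among the 27 probe sets in that comparison, against 4.12% of all probe sets. In FAC it read 8.75, 8.79 and 8.82 against 8.27, 8.36 and 8.79 in alone, where the number 3 arrays were 0.04 apart. Its mean iron effect was 0.361 (SE 0.069 with the block) and missed the threshold (limma adjusted p = 0.0608 with the block and 0.648 without). The dim 1442656_at (mean signal 4.89) gave 0.147 and was the only one of the 27 with the 3 arrays of FAC above the 3 of alone, against 4.17% of all probe sets.

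Elovl5 extends polyunsaturated chains. Its brightest probe set (1415840_at) read 11.95, 11.85 and 11.94 in RAW_FAC against 11.86, 11.84 and 11.94 in RAW. It read 11.86, 11.96 and 12 in FAC against 11.87, 11.81 and 11.98 in alone. The groups overlapped, and 4 of 6 pairs were above 0. The mean iron effect was 0.045, with a 95% interval in limma with the block of -0.048 to 0.138 (adjusted p = 0.783), so an effect of the size seen at Elovl6 lay outside it. Its second probe set (1437211_x_at) gave 0.055.

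Upstream sequence from RefSeq was held for 7 of the 10 genes, and those of the 2 elongases and of Acss2 are given here, as the elongases had the largest and 1 of the smallest differences and Acss2 had differing probe sets. Each window is the 250 bases before the 5′ end of the gene in GRCm38.p6, on the gene's strand. Elovl6 lies on the plus strand, with its window at chr3:129532136-129532385. Elovl5 lies on the plus strand, with its window at chr9:77917115-77917364. Acss2 lies on the plus strand, with its window at chr2:155517793-155518042. Capitals mark matches to any of 4 motifs on either strand. The sterol element was searched as TCACNCCAC. The E-box was searched as CACGTG. For the CCAAT box the letters were CCAAT alone. The GC box was searched as GGGCGG. The motifs share no base in these 3 windows.
Elovl6: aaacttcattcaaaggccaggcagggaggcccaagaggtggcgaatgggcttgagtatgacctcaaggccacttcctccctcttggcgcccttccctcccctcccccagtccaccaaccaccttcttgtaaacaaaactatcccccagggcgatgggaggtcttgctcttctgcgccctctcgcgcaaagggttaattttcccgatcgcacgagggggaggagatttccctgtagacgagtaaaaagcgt
Elovl5: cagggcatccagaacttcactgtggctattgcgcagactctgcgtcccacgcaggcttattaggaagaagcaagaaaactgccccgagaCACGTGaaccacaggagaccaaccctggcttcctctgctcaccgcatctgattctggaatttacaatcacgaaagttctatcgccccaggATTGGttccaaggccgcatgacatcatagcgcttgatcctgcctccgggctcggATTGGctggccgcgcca
Acss2: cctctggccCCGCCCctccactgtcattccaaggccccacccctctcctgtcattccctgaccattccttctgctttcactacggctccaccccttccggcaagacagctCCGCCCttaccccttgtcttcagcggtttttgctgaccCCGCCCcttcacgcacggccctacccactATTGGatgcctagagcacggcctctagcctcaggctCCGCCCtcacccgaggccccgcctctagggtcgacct
The Elovl6 window holds none of the 4 motifs, the Elovl5 window holds 1 E-box and 2 CCAAT boxes, and the Acss2 window holds 1 CCAAT box and 4 GC boxes. Of 32851 mouse windows of 250 bases before RefSeq transcript starts, 1.05% hold the sterol element, 6.02% the E-box, 33.8% the CCAAT box and 32.7% the GC box. A transcript start can lie inside the annotated gene. Of the 7 windows read here, those of Fasn and Acaca included, 0, 1, 3 and 3 do. A match is a description of letters, and the windows of Fasn and Acaca lie inside the annotated genes, 619 and 65803 bases from their 5′ ends, so they are not shown.

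Scd2, which makes oleate from stearate, gave the largest iron difference among the 27 probe sets. Probe set 1415824_at read 10.96, 10.86 and 11.61 in RAW_FAC against 10.23, 10.29 and 11.36 in RAW, and 10.98, 11.06 and 11.61 in FAC against 10.56, 10.51 and 11.26 in alone. In every group number 3 was the highest array, and numbers 1 and 2 with iron lay below number 3 without it, so the groups overlapped. This probe set averaged 11.14 ± 0.41 in RAW_FAC and 10.62 ± 0.63 in RAW, and 11.22 ± 0.34 in FAC and 10.77 ± 0.42 in alone (SD, n = 3 each). The pairs ran from 0.26 to 0.73 and the mean iron effect was 0.483, which is 1.4-fold (SE 0.213 without and 0.068 with the block). It rose in the fit with the block (limma adjusted p = 0.0180) and did not pass without it (0.891).

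The brightest Scd2 probe set, 1415822_at, gave a smaller effect of 0.241 (SE 0.056 with the block, limma adjusted p = 0.130). It read 13.04, 13.12 and 13.33 in RAW_FAC against 12.75, 12.75 and 13.23 in RAW, and 13.04, 13.18 and 13.39 in FAC against 12.79, 12.77 and 13.35 in alone. Its number 3 pairs were the smallest, at 0.09 and 0.04. Probe set 1415823_at gave 0.332, with 5 of 6 pairs above 0 and -0.23 in RAW_FAC minus RAW, number 3. All 3 probe sets thus had positive mean effects, and only 1 passed.

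Scd1, the main liver form of the same enzyme in mice, was below the median signal on both of its probe sets, with means of 4.30 and 3.60. The brighter one (1415964_at) read 4.20, 4.19 and 4.32 in RAW_FAC against 4.34, 4.30 and 4.19 in RAW. It read 4.30, 4.24 and 4.42 in FAC against 4.40, 4.28 and 4.45 in alone. The groups overlapped, and 1 of 6 pairs was above 0. The mean iron effect was -0.050 with a 95% interval of -0.159 to 0.059 in limma with the block (adjusted p = 0.799). Its second probe set (1415965_at) gave -0.034. Mouse Scd genes are close in sequence, and whether probes of one read another was not tested.

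Fads1, the delta-5 desaturase, read 9.60, 9.60 and 9.99 in RAW_FAC against 9.36, 9.40 and 9.68 in RAW (probe set 1423680_at). It read 9.55, 9.58 and 9.81 in FAC against 9.40, 9.35 and 9.70 in alone. Number 3 without iron lay above numbers 1 and 2 with iron in both pairs of groups, so they overlapped. The pairs ran from 0.11 to 0.30, and the mean iron effect was 0.208 (SE 0.093 without and 0.040 with the block, limma adjusted p = 0.891 and 0.0661). Its second probe set, 1440444_at, gave -0.023 with pairs from -0.28 to 0.31 and a 95% interval with the block of -0.238 to 0.193.

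Fads2, the delta-6 desaturase, read 7.42, 7.24 and 7.62 in RAW_FAC against 7.05, 7.0 and 7.39 in RAW (probe set 1419031_at). It read 7.48, 7.15 and 7.46 in FAC against 7.22, 6.94 and 7.45 in alone. Number 2 was the lowest array of each group, and the groups overlapped. The mean iron effect was 0.222 (SE 0.104 without and 0.052 with the block, limma adjusted p = 0.896 and 0.130), with the smallest pair, 0.01, in FAC minus alone, number 3. The other 2 probe sets gave 0.132 (1449325_at) and 0.279 (1443838_x_at).

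**Figure D2:**
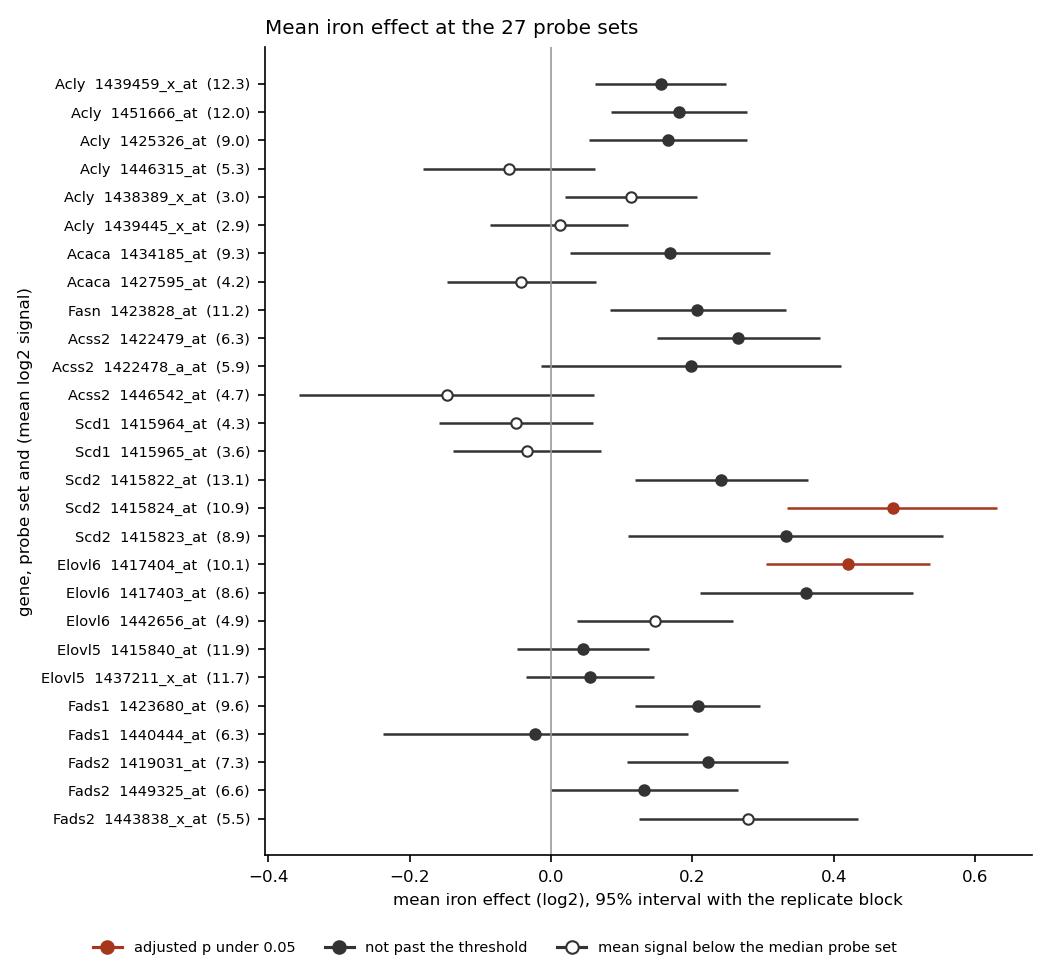
Mean iron effect (log2, horizontal axis) of the 27 probe sets with 95% intervals from the fit with the replicate block; mean log2 signals stand in parentheses and open circles mark probe sets below the median signal. Of the 18 at or above the median signal 17 lie above 0, and of the 9 below it 4 do.

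Over the 27 probe sets the mean iron effect had a median of 0.166 and 21 were above 0, against 21914 of 45037 for all probe sets, with a median of -0.002. The 18 probe sets at or above the median signal had a median of 0.203 and the 9 below it -0.034. Among all probe sets the medians of these signal classes were -0.002 and -0.003. For 5 genes (Acly, Acaca, Acss2, Fads1 and Scd1) at least 1 probe set had a negative effect, in each case with a 95% interval that included 0. Some Acly, Elovl5 and Fads2 probe sets have the suffix _x_at, which marks probes that can match other transcripts.

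Taken separately, the iron comparisons gave no member past the adjusted threshold. In RAW_FAC minus RAW, which sets iron against no iron beside macrophages, the 10 brightest probe sets had a median difference of 0.23, and in FAC minus alone, the same beside BNL CL.2 cells, it was 0.16. In limma without the block 0 of the 27 passed in either comparison, with 0% of all probe sets called. At an unadjusted p under 0.05 it was 5 of 27 in RAW_FAC minus RAW, against 5.33% of all probe sets, and 1 of 27 in FAC minus alone, against 3%, a share near the background. With the block 0 of 27 passed again, against 0.00888% of all probe sets called higher in RAW_FAC minus RAW and 0% in FAC minus alone. The counts at an unadjusted p under 0.05 were then 15 in RAW_FAC minus RAW (9.52% of all) and 10 in FAC minus alone (5.73% of all). Elovl6 came closest, with 0.410 in RAW_FAC minus RAW (adjusted p = 0.131) and 0.429 in FAC minus alone (0.209).

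The interaction, RAW_FAC minus RAW less FAC minus alone, was between -0.02 and 0.12 for the brightest probe sets. In limma 0 of 27 passed without the block, where 0% of all probe sets did. At an unadjusted p under 0.05, 0 of 27 did without the block (3.07% of all) and 0 with it (4.6% of all), which is near the background for 27 probe sets. The 95% interval with the block was -0.251 to 0.213 at Elovl6 and -0.102 to 0.351 at Fads2, and the Fads2 interval reached past its mean iron effect of 0.222. The FAC minus alone pair of number 3 stood apart. Its median over the 10 genes was 0.03, against 0.18 and 0.27 for numbers 1 and 2 and 0.20, 0.20 and 0.23 for the pairs of RAW_FAC minus RAW. Of the 10 genes 7 had their smallest iron difference there, against 15.8% of all probe sets. Without alone replicate 3 the median of FAC minus alone was 0.28 in the fit without the block, and without alone replicate 2 it was 0.10. In that fit leaving out an array leaves unequal replicate numbers, so these values do not single out an array.

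**Figure D3:**
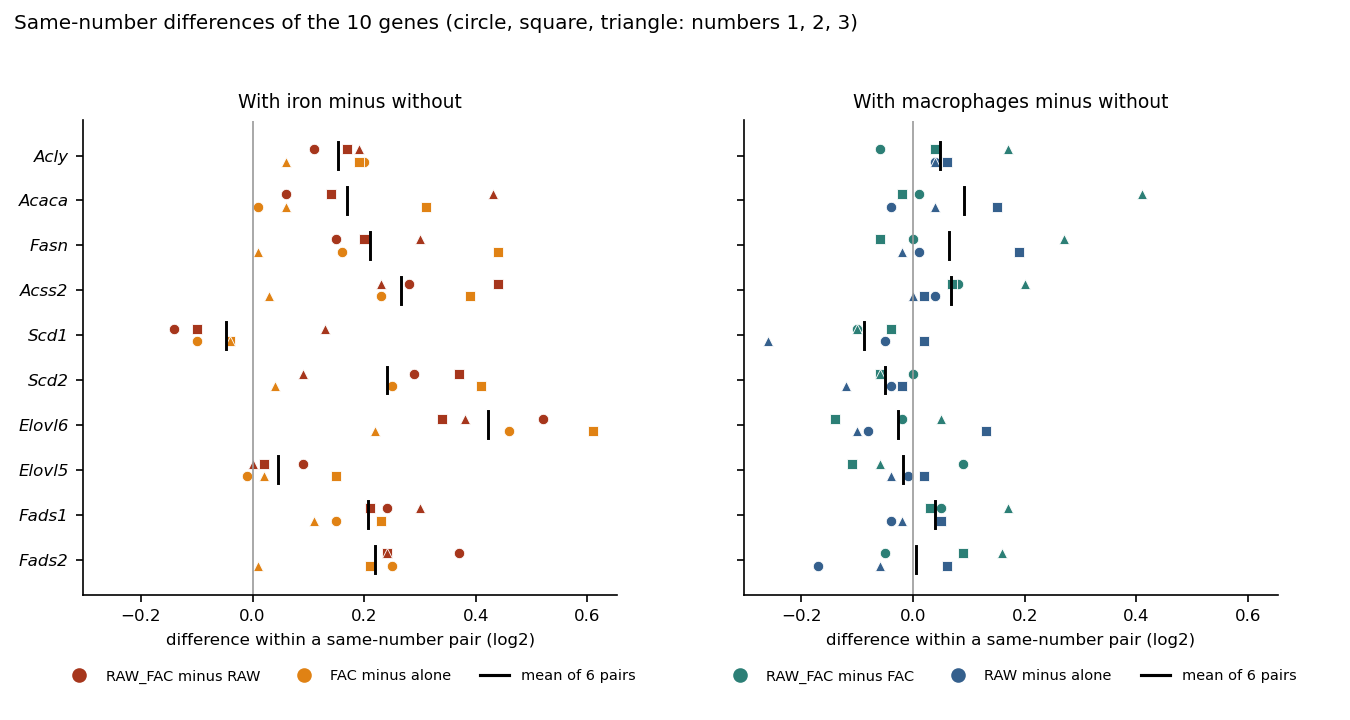
Differences within same-number pairs (log2, horizontal axis) for the brightest probe set of each gene, with iron minus without (left) and with macrophages minus without (right); circles, squares and triangles are numbers 1, 2 and 3 and black bars the mean of 6 pairs. With iron 8 genes have 6 points above 0, and with macrophages no gene does.

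No member differed past the threshold with macrophages in the insert. The mean macrophage effect, the average of RAW_FAC minus FAC and RAW minus alone, ran from -0.089 at Scd1 to 0.091 at Acaca with a median of 0.022, and 0.005 over all genes. Of the 27 probe sets 0 were higher in 6 of 6 same-number pairs (2.5% of all) and 0 were lower in 6 of 6 (2.59% of all). In limma 0 of 27 passed without the block, against 0.00222% of all probe sets, and 0 with it, against 0.00666% called higher. At an unadjusted p under 0.05 the count was 0 without the block (3.89% of all) and 0 with it (6.57% of all). For RAW_FAC minus FAC and RAW minus alone 0 passed in either fit, with 0% of all probe sets called without the block. Both also had 0 at an unadjusted p under 0.05, against 3.18% of all probe sets without and 5.34% with the block in RAW_FAC minus FAC, and 4.01% and 6.18% in RAW minus alone. The 95% intervals with the block were -0.141 to 0.091 at Elovl6 and -0.060 to 0.188 at Fasn.

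Number 3 of the macrophage comparison was again uneven. The median of RAW_FAC minus FAC was 0.16 for number 3, against 0.00 and -0.03 for numbers 1 and 2. The largest single value was 0.41 at Acaca, where RAW_FAC 3 read 9.98 and FAC 3 read 9.57. Without RAW_FAC replicate 3, the median of RAW_FAC minus FAC was -0.048 in the fit without the block and 0.021 with it. In the unblocked fit, leaving out that array leaves unequal replicate numbers, so this change of sign does not single it out. FAC 3 is in both number 3 pairs that stood apart, this one and FAC minus alone (0.03). The number 3 medians of pairs without FAC 3 were 0.23 in RAW_FAC minus RAW and -0.03 in RAW minus alone. The part of FAC 3 was not tested.

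RAW_FAC minus alone sets cells with both macrophages and iron against cells with neither. It shares its arrays with the comparisons above. The 10 genes had a median of 0.24, from -0.139 at Scd1 to 0.395 at Elovl6, with 0.333 at Acss2 and 0.271 at Fasn. In limma 0 of 27 passed without the block (0% of all probe sets), where 6 had an unadjusted p under 0.05 (4.52% of all). With the block 0 passed, against 0.0244% of all probe sets called higher, and 15 had an unadjusted p under 0.05 (8.57% of all). Elovl6 had the smallest adjusted p with the block among the brightest probe sets (0.108).

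Beside iron, these genes differed by replicate number, as seen in the values above. Number 3 was the highest of the 3 arrays in 35 of 40 combinations of gene and group, against 34.7% of combinations over all probe sets. Number 3 minus the mean of numbers 1 and 2, over the 4 groups, was 0.49 for Elovl6, 0.46 for Acaca, 0.40 for Scd2 and 0.32 for Fads1. It was 0.29 for Fads2, 0.27 for Acss2, 0.26 for Fasn and 0.19 for Acly, and 0.09 and 0.06 for Elovl5 and Scd1. The Gapdh 3′ minus 5′ signal, a sign of RNA quality, was 0.06 to 0.11 in the number 3 arrays and -0.05 to 0.01 in the others, while its group means were 0.03 in RAW_FAC, 0.01 in FAC, 0.01 in RAW and 0.02 in alone. The same measure for Actb did not set number 3 apart, at 0.36 to 0.42 in the number 3 arrays and 0.32 to 0.41 in the others. What the numbers stand for is not given in the labels, and the part of RNA quality in the number 3 values was not tested.

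As a description over the 12 arrays, which share replicate numbers and iron, the genes other than Scd1 varied together. Pearson's r between the brightest probe sets was 0.60 to 0.97 over the 36 pairs of genes without Scd1 (median 0.86), with the highest between Acly and Fads1. Over the 9 pairs with Scd1 it was -0.23 to 0.21. Among 11248 other genes at or above the median signal, those with the highest r to the mean of the 10 standardized values were Dpysl2 (0.97), Adam8 (0.95), Nsdhl (0.94), Pdp2 (0.94) and Madd (0.94), over n = 12 arrays.

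Genes around the pathway were described by lists, 1 probe set per gene, and listed genes without a probe set of their own were not analysed here. Of 17 cholesterol genes measured, 17 had a mean iron effect above 0, against 48.9% of all genes. Their median was 0.375, higher than the 0.21 of the fatty acid genes. With the block 9 of the 17 rose in limma, against 0.418% of all genes, led by Mvd (0.629, adjusted p = 0.0124) and Lss (0.515, 0.0125). The others were Idi1 (0.474), Cyp51 (0.471), Fdps (0.467), Fdft1 (0.444), Dhcr7 (0.416), Sqle, a rate-limiting step (0.392), and Hmgcs1 (0.352), with limma adjusted p from 0.0236 to 0.0363. Without the block 0 of the 17 passed, as for every list here. With the block and 1 array left out the count was 1 to 10, and it was 1 to 3 without replicate 1 or 2 of any group. The difference between the lists was not tested.

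Of 20 regulators, 14 were above 0 with a median of 0.034, against 48.9% of all genes above 0. Insig1 alone rose with the block, against 0.418% of all genes. Insig1 is a sterol-responsive protein that holds SREBP precursors in the endoplasmic reticulum, and its effect was 0.616 (limma adjusted p = 0.0138). Its call was lost without FAC replicate 1 or 2, alone replicate 1 or 2, RAW replicate 1 or 2, or RAW_FAC replicate 2. Srebf1 and Srebf2, which encode the SREBP proteins, had 0.117 and 0.144, with no call (limma adjusted p = 0.382 and 0.318 with the block). Both had 6 of 6 pairs above 0 (3.23% of all probe sets). So did Ppara (0.162) and Mlx (0.072) of the same list, also without a call, while Pparg (-0.153) had 0 of 6.

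Of 12 genes that supply acetyl units or NADPH or otherwise serve synthesis, 8 were above 0, against 48.9% of all genes. Their median was 0.030, and 3 rose with the block, against 0.418% of all genes. They were Idh1 (0.455, limma adjusted p = 0.0141) and Pgd (0.242, 0.0310), both sources of cytosolic NADPH, and Mid1ip1 (0.279, 0.0448), which promotes polymerization of acetyl-CoA carboxylase. With 1 array left out 0 to 2 of them passed, and 0 did without replicate 1 or 2 of FAC, alone or RAW, or without RAW_FAC replicate 2. Of 18 other elongation and desaturation genes 17 were above 0 (48.9% of all genes), with a median of 0.080 and 0 called (0.418% of all genes). The largest among them were Fads3 (0.149), Tecr (0.142), the reductase of the elongation cycle, and Elovl2 and Elovl3 (0.127 each, both at signals below the median).

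Of 14 genes of fatty acid activation and glycerolipid synthesis 13 were above 0 (48.9% of all genes), with a median of 0.038. With the block 0 of the 14 were called (0.418% of all genes called higher). The brightest probe set of Lpin1, a phosphatidate phosphatase, had 0.335 and did not pass with the block (limma adjusted p = 0.0784). Beyond the brightest, 1 other Lpin1 probe set passed, against 0.369% of all probe sets in either direction. Acsl3, a gene of fatty acid activation, had 0.238 with 5 of 6 pairs above 0 and no call (limma adjusted p = 0.198 with the block). Plin2, the coat protein of lipid droplets, had -0.217 with 0 of 6 pairs above 0 and no call (0.188). Of 16 fatty acid oxidation genes 8 were above 0 (48.9% of all genes), with a median of -0.003 and 0 called (0.418% of all genes called higher). The largest of these were Acads (0.153) and Eci1 (0.106), enzymes of the oxidation cycle, and Slc25a20 (-0.090), the mitochondrial carnitine carrier.

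**Figure D4:**
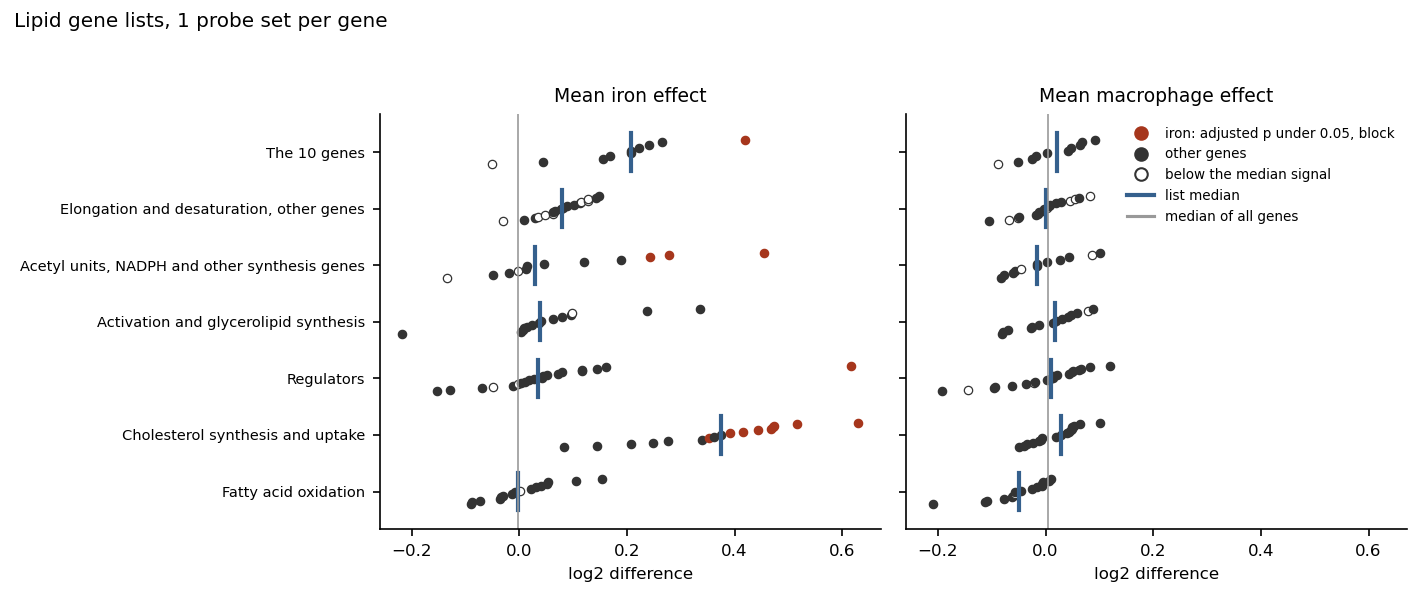
Mean iron effect (left) and mean macrophage effect (right), in log2, of each gene of the lists, 1 probe set per gene; filled red circles passed for iron with the replicate block, open circles are below the median signal, blue bars are list medians and grey lines the median of all genes. The list medians for iron are 0.375 for cholesterol genes and 0.21 for the 10 genes, and those of the other lists lie between -0.003 and 0.080.

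Markers of other cell types were set beside these values. The summed linear signal of 11 macrophage markers was 4640 to 5116 in RAW_FAC and 4275 to 4634 in RAW, which did not overlap, and 4332 to 5006 in FAC and 4350 to 4927 in alone, which did. Their mean log2 signal overlapped in both comparisons, at 5.72 to 5.74 in RAW_FAC and 5.73 to 5.79 in RAW, and 5.67 to 5.79 in FAC and 5.65 to 5.74 in alone. Of these markers 8 were below the median signal, Ptprc, Adgre1 and Cd68 among them, and the sum was mostly that of Cd14, whose mean log2 signal was 12.04. Of 9 hepatocyte markers 3 were below it, including Alb (5.20), while Hnf4a (10.45), Afp (9.04), Krt8 (14.28) and Krt18 (14.07) were bright. Afp, a protein of fetal liver, rose with iron in the fit with the block (0.449, limma adjusted p = 0.0268). Its call was lost without 9 of the 12 arrays, taken 1 at a time, and held without RAW_FAC replicate 1, alone replicate 1 or RAW replicate 3. All 4 adipocyte markers were below the median signal, and of 7 mesenchymal markers 5 were, while Vim (14.14) was bright. Of the 7 mesenchymal markers 6 had a mean iron effect below 0, with a median of -0.076, and 0 passed in limma. Of all genes 48.9% were above 0. Vim had -0.066 with 0 of 6 pairs above 0. Their mean log2 signal was 6.24 to 6.33 in RAW_FAC and 6.34 to 6.37 in RAW, which did not overlap, and 6.28 to 6.35 in FAC and 6.34 to 6.39 in alone, which did. Their summed linear signal was 17063 to 18438 in RAW_FAC and 18112 to 19999 in RAW, and 17570 to 18440 in FAC and 18064 to 19570 in alone, and overlapped in both. The part of these markers in the iron differences was not tested.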

How the data were processed

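RNA from 12 samples of BNL CL.2 cells was extracted with a Qiagen RNeasy mini kit, per the labels' protocols, and hybridised to Affymetrix mouse arrays. The authors deposited log2 signals, made with RMA in affy per the submitters' processing notes, whose versions are not given in the sources used. RMA scales the arrays to each other, so the log2 values were used as deposited by the authors. Array medians were 5.63 to 5.68, correlations within a group were 0.9963 to 0.998, and at most 0.167% of values were identical between any 2 arrays. Precision is limited by the number of arrays.

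Of 45101 probe sets 64 controls were left out. Of the 45037 tested, 34945 have 1 gene symbol in the platform annotation, 932 several and 9160 none. Groups and replicate numbers come from the sample titles. With limma 3.58.1 (R 4.3.3), all probe sets of the 12 arrays were modelled by 1 mean per group, with empirical Bayes moderation, two-sided tests and Benjamini-Hochberg adjustment over all probe sets, at a threshold of 0.05. The brightest probe set of a gene is the one with the highest mean over the 12 arrays.

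Residuals of same-number arrays of different groups correlated at 0.238 to 0.432 over 18 pairs. From these values the numbers were taken to pair the arrays, and a fit with the number as an additive block is given beside the main one. Residuals of other numbers correlated at -0.307 to 0.017. Removing group means pushes these below 0 when same-number values are above it, so they are not separate support. Alternatives were 1 probe set per gene, a filter on low signals, quantile normalization, median centring, moderation with trend and robust, array weights, a fit to the compared groups, a log2 difference of at least 0.5 and leaving out each array. Leaving out each array was planned with and without the block; the block together with other alternatives, and list counts with 1 array left out, were added after the data were seen. The fits were tested on simulated data.

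The genes, the lists and the tests were chosen with earlier results of these data known, so no count here is independent evidence of a direction. Genes outside the 10 were named if a probe set passed with the block, or as up to 3 of a list with the largest mean iron effect; the genes most like the 10 are the 5 with the highest r. Srebf1, Srebf2, Ppara, Mlx, Plin2, Pparg, Olah, Cpt1a, Cpt2 and the bright or dim markers were named after their values were seen. Promoter windows and their build come from RefSeq. Tables and plots used Python 3.11.15, numpy 2.4.6, pandas 2.3.3 and matplotlib 3.10.9.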

Additional observations from a re-analysis of the deposited data

How the results depend on the processing

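The number of these genes past the threshold for the mean iron effect was 0 in every fit without the block. With the replicate block it was 2 (Elovl6 and Scd2), and it was again 2 with the block and quantile normalization, median centring or array weights. With the block it was 3 with 1 probe set per gene (Elovl6, Acss2 and Fads1, as the Scd2 probe set that passed is not the brightest), 6 with low probe sets left out, and 6 with trend and robust moderation. The share of all probe sets called, in either direction, was 0.369% with the block, and with these 3 alternatives it was 0.792%, 1.71% and 1.25%, so the background moved with the count. Without single arrays it was 0 to 2. The filter and 1 probe set per gene reduce the number of probe sets over which p is adjusted. They also change the probe sets that the moderation draws on. What made the counts higher was not tested for any of these alternatives. Trend and robust moderation with the block also gave 2 genes in FAC minus alone (0.135% of all probe sets called), 3 in RAW_FAC minus RAW (0.315%) and 3 in RAW_FAC minus alone (0.506%), and the filter with the block gave 1 in RAW_FAC minus alone (0.382%), against 0 otherwise. A log2 difference of at least 0.5 left 0 with or without the block, against 0.0866% of all probe sets called with the block. This could not be otherwise, as the largest mean iron effect of any member probe set was 0.483. The block changed no other call.

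Without single arrays, with and without the block, the median of the 10 genes was 0.145 to 0.264 for the mean iron effect, 0.108 to 0.347 for RAW_FAC minus RAW (with the block 0.193 to 0.261), 0.102 to 0.277 for FAC minus alone and 0.118 to 0.369 for RAW_FAC minus alone, all above 0. It was -0.048 to 0.087 for RAW_FAC minus FAC, -0.091 to 0.124 for RAW minus alone, -0.026 to 0.084 for the mean macrophage effect and -0.060 to 0.166 for the interaction, and so took both signs. Array weights gave 0.177 for RAW_FAC minus RAW. In the fit without the block, leaving out an array leaves unequal replicate numbers, and number 3 is high in most of these genes. None of the 10 mean iron effects changed sign under any alternative that kept the gene.

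Quantile normalization and median centring moved the median of all probe sets by at most 0.0034 and 0.025 (log2). Of the 27 probe sets 9 lay below the median signal, both of Scd1 among them, where a difference is hard to see over background.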

Other observations

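Of 16 fatty acid oxidation genes measured, 2 had a mean macrophage effect above 0, against 53.8% of all genes. Their median was -0.050, against 0.005 over all genes. Cpt1a, the carnitine palmitoyltransferase that admits fatty acids to mitochondria, had -0.210, and Cpt2 had -0.112. In RAW minus alone 0 of the 16 genes were above 0 (49.8% of all genes), with a median of -0.056. In RAW_FAC minus FAC 5 were (53.9% of all genes), with a median of -0.013. For the mean macrophage effect 0 of the 16 passed in limma without the block (0.00222% of all probe sets) or with it (0.00666%). The difference between this list and others was not tested.

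Pparg, a nuclear receptor of lipid storage, had -0.153 for iron and -0.192 for macrophages, with 0 of 6 iron pairs above 0 and no call (limma adjusted p = 0.406 for iron with the block). Olah, a thioesterase that releases medium-chain fatty acids from the synthase, had -0.134 for iron with 0 of 6 pairs above 0, at a signal below the median (4.91) and with no call (limma adjusted p = 0.342 with the block). Cpt1a, Cpt2, Pparg and Olah were chosen after their values were seen.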
